A study of Mus musculus with 18 samples.

Results

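The 8 genes described here encode the core transcription factors of the pluripotent state and proteins that work with them: Pou5f1, Sox2, Nanog, Sall4, Utf1, Lin28a, Zfp281 and Fgf4. They were chosen by name, and all 8 were found among the 17818 symbols of the embryonic stem (ES) cell expression table and the 17813 symbols of the fibroblast table. In ES3 cells that lost Trim28, 3 of the 8 genes stood at least 2-fold lower than in wild type: Sox2, Fgf4 and Nanog (3.18% of all measured genes were lower by that much). Utf1, Pou5f1, Zfp281, Sall4 and Lin28a lay within 2-fold. No member was higher. Nanog also had a KAP1 peak close upstream of its start in wild-type ES3 cells, and an H3K9me3 region in the knockout list lay under that peak.

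Oct4 (the product of Pou5f1) and Sox2 bind DNA side by side, and together they switch on a set of ES cell genes that includes their own genes, Nanog, Utf1 and Fgf4. Nanog stabilises this state, and Sall4 and Zfp281 are zinc finger proteins that bind many of the same sites and bring in corepressor complexes. Fgf4 is the growth factor that this circuit makes ES cells secrete, and signalling from it readies cells to leave the pluripotent state. TRIM28, also called KAP1, silences chromatin once zinc finger proteins have tethered it to their sites, by way of enzymes that methylate histone H3 at lysine 9 (H3K9me3).

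The labels describe 18 libraries, of which 4 RNA libraries and the region lists of 4 chromatin libraries were used. The RNA groups were Trim28-knockout ES3 cells taken 4 days after a Cre recombinase was induced with 4-OHT (4-hydroxytamoxifen), wild-type ES3 cells cultured for 4 days, knockout mouse embryonic fibroblasts (MEFs) taken 5 days after the same kind of induction, and wild-type MEFs cultured for 5 days. All were labelled C57BL/6. ES3 cells grew without feeder cells in serum with leukaemia inhibitory factor, and the labels do not say whether wild-type cells received 4-OHT. Chromatin came from ES3 knockout and wild-type cells at the same 4 days, when, per the labels, H3K9me3 in the knockout is reduced and not gone. Each RNA group was 1 library made from pooled duplicates, so no spread between replicates and no p-value can be given, and genes were called by the size of the ratio alone.

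Levels are RPKM, reads per kilobase of transcript scaled to the reads of the library, and ratios are log2((knockout + 1)/(wild type + 1)), which understates the change of low genes. A gene was called measured at 1 RPKM in at least 1 of the 2 libraries, and higher or lower at 2-fold. RPKM summed over symbols to 306318 in ES3 knockout, 318250 in ES3 wild type, 369572 in MEF knockout and 308887 in MEF wild type. The number of reads per library is unknown. Trim28 stood at 37.2 RPKM in ES3 knockout and 1051 RPKM in ES3 wild type, and at 5.84 RPKM in MEF knockout and 62.8 RPKM in MEF wild type. Of 12024 measured ES3 genes, 3.18% were called lower and 12.5% higher, and the median ratio was 0.08.

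The promoters of the 3 lower genes and of Lin28a, the member that differed least, are shown because Oct4 and Sox2 are known to act on several of these genes through short DNA words. Each run spans 250 bases before to 50 bases after a RefSeq start (assembly GRCm38.p6, so its coordinates differ from the mm9 positions given elsewhere). Capitals mark TTTGCAT, the core of the word read by Oct4, and ACAATG, a word read by Sox proteins, on either strand.
Sox2 promoter (chr3:34649745-34650044, plus strand): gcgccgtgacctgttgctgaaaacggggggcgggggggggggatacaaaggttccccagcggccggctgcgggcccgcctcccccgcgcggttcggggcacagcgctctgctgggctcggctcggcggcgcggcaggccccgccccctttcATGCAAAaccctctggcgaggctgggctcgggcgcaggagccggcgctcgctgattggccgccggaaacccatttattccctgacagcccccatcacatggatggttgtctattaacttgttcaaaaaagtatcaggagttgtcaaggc
Fgf4 promoter (chr7:144861136-144861435, plus strand): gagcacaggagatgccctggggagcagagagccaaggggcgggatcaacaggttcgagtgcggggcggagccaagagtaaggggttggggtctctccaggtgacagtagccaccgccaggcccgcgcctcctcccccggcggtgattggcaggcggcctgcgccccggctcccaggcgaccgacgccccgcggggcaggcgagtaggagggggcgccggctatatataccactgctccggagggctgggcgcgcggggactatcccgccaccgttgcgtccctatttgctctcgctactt
Nanog promoter (chr6:122707239-122707538, plus strand): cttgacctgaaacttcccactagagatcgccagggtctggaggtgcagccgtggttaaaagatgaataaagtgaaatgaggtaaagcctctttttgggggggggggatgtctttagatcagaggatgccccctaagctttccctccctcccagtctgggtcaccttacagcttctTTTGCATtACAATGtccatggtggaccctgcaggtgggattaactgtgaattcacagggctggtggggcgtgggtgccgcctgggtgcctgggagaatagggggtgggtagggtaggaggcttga
Lin28a promoter (chr4:134018767-134019066, minus strand): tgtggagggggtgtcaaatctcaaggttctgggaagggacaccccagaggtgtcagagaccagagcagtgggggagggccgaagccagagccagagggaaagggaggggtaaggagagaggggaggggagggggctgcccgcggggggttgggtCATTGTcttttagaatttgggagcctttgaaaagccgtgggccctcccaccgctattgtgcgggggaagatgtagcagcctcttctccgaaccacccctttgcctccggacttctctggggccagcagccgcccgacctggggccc

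In the Nanog window the 2 words lie next to each other with a single base between them, starting 75 and 67 bases before the start, and the same pair stands in the window of a second, overlapping Nanog start at 151 and 143 bases. The joined word (TTTGCAT, any single base, then ACAATG) has the order and spacing of this Nanog site, so its presence there is no test. Of all 32851 RefSeq promoter windows, only these 2 overlapping ones, which share the single site, held it (0.00609%). TTTGCAT was in 4.63% of all windows and, besides Nanog, in that of Sox2, where it lies on the opposite strand 99 bases before the start. ACAATG was in 12.6% of windows, among them that of Lin28a, 96 bases before the start on the opposite strand, and 1 of the 2 windows of Pou5f1. The windows of Fgf4, Utf1 and Zfp281 held neither word. Sequence outside the windows was not searched, so this does not show that these genes lack such words. For 7 of the 8 members a window was found in this table. A match describes letters and does not show that a factor binds there.

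Sox2, the HMG-box partner of Oct4 (NM_011443; mm9 chromosome 3, 34548927 to 34551383, plus strand), had the lowest ratio of the 8. It stood at 49.997 RPKM in ES3 knockout and 195.0 RPKM in ES3 wild type (log2 ratio −1.94), which leaves 25.6% of the wild-type level. Among all 12024 measured genes its ratio ranked 51 from the lowest. Sox2 lies within the long non-coding gene Sox2ot in RefSeq, and how reads of overlapping genes were assigned is unknown. Pou5f1 (NM_013633; chromosome 17, 35643007 to 35647714, plus strand) stood at 493.5 RPKM in the knockout and 820.2 RPKM in wild type (−0.73). It was the most abundant member in both ES3 libraries and among the most abundant transcripts of the table, ranking 43 in the knockout and 31 in wild type. RefSeq lists several Pou5f1 pseudogenes, so reads from near-identical copies may enter its value. The level of Pou5f1 was 9.87 times that of Sox2 in the knockout and 4.21 times in wild type.

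Fgf4, the secreted ligand (NM_010202; chromosome 7, 152047291 to 152051148, plus strand), came next, with 28.1 RPKM in ES3 knockout and 98.6 RPKM in ES3 wild type (−1.77, 28.5% of wild type). Its neighbour Fgf3, another FGF ligand gene whose start lies 23303 bp away, stood on the opposite side, with 5.86 RPKM in the knockout and 0.827 RPKM in wild type (1.91). Fgf3 was measured only through the knockout library. Fgf15 on the other side, 35146 bp away, was at 0.721 RPKM in the knockout and 0.468 RPKM in wild type, under the limit for a ratio.

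Nanog, the homeodomain factor (NM_028016; chromosome 6, 122657507 to 122664651, plus strand), stood at 25.03 RPKM in ES3 knockout and 66.1 RPKM in ES3 wild type (−1.37, 37.9% of wild type). A second deposited transcript, NM_001080945, was at 13.4 RPKM in the knockout and 39.3 RPKM in wild type (−1.49). That accession was not among the Nanog transcripts of the reference table, and Nanog has pseudogenes there, Nanog-ps1 and Nanog-ps2, so reads from near-identical copies may enter its value. With a 3-fold threshold Nanog was no longer called, whereas Sox2 and Fgf4 were. The genes on each side went different ways. Dppa3, a germ cell and ES cell gene that starts 81079 bp away, was at 6.33 RPKM in the knockout and 13.2 RPKM in wild type (−0.96). Slc2a3, a glucose transporter gene 35030 bp away, was at 397.4 RPKM in the knockout and 219.8 RPKM in wild type (0.85).

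**Figure D1:**
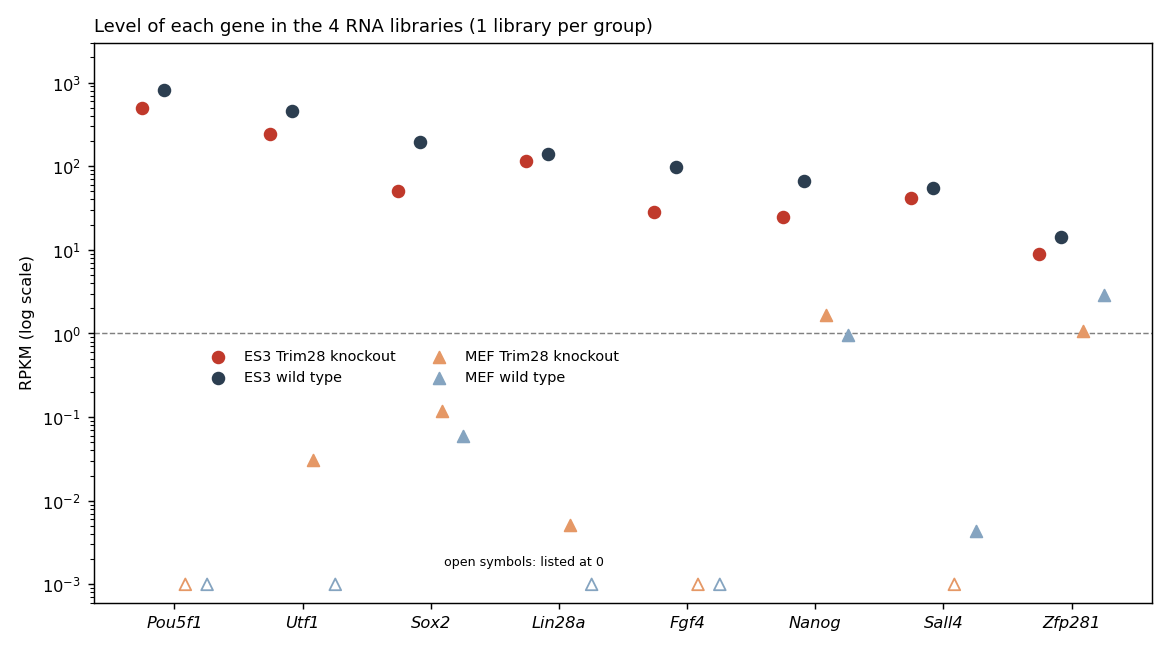
RPKM of each gene (log axis) in knockout and wild-type libraries of ES3 cells (circles) and MEFs (triangles), 1 point per library, with no error bars because each group is 1 library; open symbols mark genes listed at 0 and the dashed line marks 1 RPKM. In ES3 cells every knockout point lies below its wild-type point, with the widest gaps for Sox2 and Fgf4, and in MEFs only Nanog and Zfp281 reach the line.

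Utf1, a chromatin-bound regulator that is restricted to undifferentiated cells (NM_009482; chromosome 7, 147129725 to 147131009, plus strand), stood closest to the threshold. It had 243.6 RPKM in ES3 knockout and 462.0 RPKM in ES3 wild type (−0.92), and it was called lower only when ratios were centred on the median of all genes (−1.001). Zfp281 (NM_177643; chromosome 1, 138521478 to 138526630, plus strand), known for bringing a corepressor complex to Nanog, was the least abundant member in ES3 cells. Its level was 8.94 RPKM in the knockout and 14.2 RPKM in wild type (−0.62), and its other transcript gave the same ratio to 1 decimal (−0.61).

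Sall4 (chromosome 2, 168573832 to 168593443, minus strand) and Lin28a (NM_145833; chromosome 4, 133559245 to 133574756, minus strand) stayed nearest to their wild-type levels. The most abundant Sall4 transcript, NM_175303, stood at 41.6 RPKM in ES3 knockout and 54.6 RPKM in ES3 wild type (−0.38). The other deposited Sall4 transcripts had ratios of −0.34 (NM_201395) and −0.19 (NM_201396). Lin28a, an RNA-binding protein that blocks maturation of let-7 microRNAs, stood at 116.4 RPKM in the knockout and 139.3 RPKM in wild type (−0.26), so that 83.6% of its wild-type level was left.

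All 8 ratios were negative, as were those of 44.6% of all measured ES3 genes, and their median was −0.83. The spread among members was wide, from −1.94 for Sox2 to −0.26 for Lin28a. In wild-type cells the order of levels was Pou5f1, Utf1, Sox2, Lin28a, Fgf4, Nanog, Sall4 and Zfp281. In the knockout Lin28a stood above Sox2, and Sall4 above both Fgf4 and Nanog. With 1 library a group, it cannot be said which neighbours in these orders differ beyond their spread. In bulk RNA, fewer cells that express a gene and less RNA per cell cannot be told apart.

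Markers of other cell types moved in the same libraries. All 12 primitive endoderm markers, from the extra-embryonic lineage that forms the yolk sac, were called higher in ES3 knockout (median 3.40). Their levels summed to 1684 RPKM in the knockout and 90.1 RPKM in wild type, with none at 0 in either library. Sparc (544.3 RPKM), Col4a1 (409.3 RPKM), Lamb1 (346.6 RPKM) and Col4a2 (256.7 RPKM) made up most of the knockout sum. The same list summed to 1574 RPKM in MEF knockout and 1772 RPKM in MEF wild type, so such a sum is not particular to primitive endoderm. Of 6 trophectoderm markers with values 5 were measured and all 5 were higher, with sums of 360.7 RPKM in the knockout and 12.8 RPKM in wild type. The keratin genes Krt8 (178.8 RPKM in knockout and 4.16 RPKM in wild type) and Krt18 (164.0 RPKM and 6.60 RPKM) made up most of both sums. Cdx2 was at 1.59 RPKM in knockout and 0.273 RPKM in wild type. Eomes was under 1 RPKM in both libraries, and Elf5 and Tfap2c had no values. Of 8 primitive streak and mesoderm markers 5 were measured and 4 were higher (sums of 38.9 RPKM in knockout and 4.87 RPKM in wild type; Eomes and Hand1 are in both this and the trophectoderm list), and of 8 neural and epiblast markers 7 were measured, with 3 higher and 1 lower (sums of 83.1 RPKM in knockout and 48.7 RPKM in wild type). Of 10 fibroblast markers 8 were measured and 6 were higher (sums of 594.4 RPKM in knockout and 236.6 RPKM in wild type), and Postn and Twist2 were at 0 in wild type. Fn1, within 2-fold, made up most of the wild-type sum (141.7 RPKM in knockout and 176.6 RPKM in wild type, −0.32). Vim was the largest part of the knockout sum (301.4 RPKM, and 51.1 RPKM in wild type). Col3a1 (1.26 RPKM) and Twist2 (1.03 RPKM) lay close to the 1 RPKM limit in the knockout. These counts include genes that reached 1 RPKM only in the knockout, and 12.5% of all measured genes were called higher. None of 8 housekeeping genes was called, and their median was −0.09. The part of these other cell types in the ratios of the 8 genes was not tested.

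**Figure D2:**
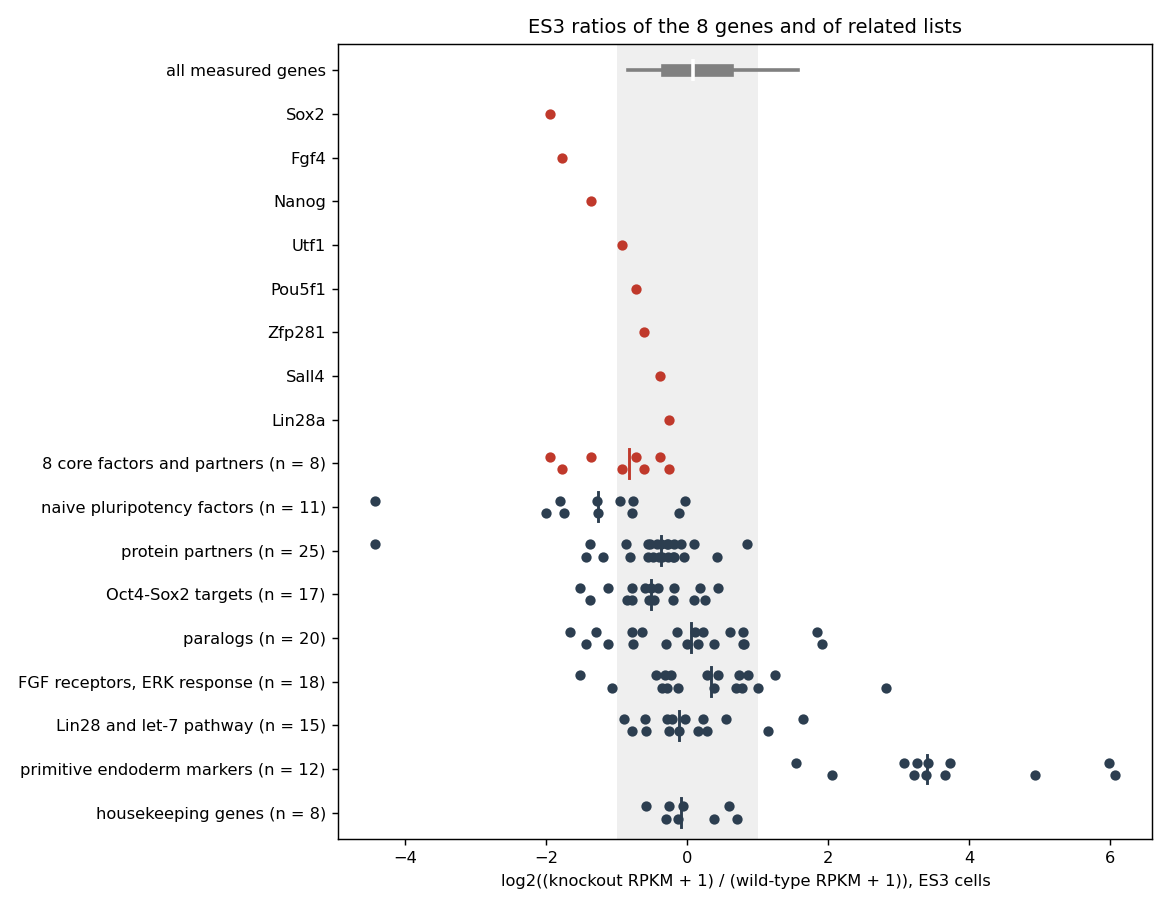
Log2 ratio of knockout over wild type in ES3 cells for each of the 8 genes (red, 1 row each and then together) and for related lists (dark points, 1 per measured gene; vertical ticks are medians), under a grey bar that gives the middle 90% (thin) and middle 50% (thick) of all measured genes; the shaded band is within 2-fold. The 8 genes run from −1.94 (Sox2) to −0.26 (Lin28a) with a median of −0.83, and primitive endoderm markers lie far to the right with a median of 3.40.

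Naive pluripotency factors, which work beside the core factors in ES cells kept with leukaemia inhibitory factor, were often lower in the knockout. Of 11 with values, all measured, 6 were called lower and none higher, with a median of −1.26. Prdm14, 1 of the 6, was measured only through the wild-type library. Among all measured genes 3.18% were lower and 12.5% higher. Nr0b1, a nuclear receptor that binds Oct4 (5.47 RPKM in knockout and 137.3 RPKM in wild type, −4.42), Esrrb (18.7 RPKM in knockout and 77.8 RPKM in wild type, −1.997), Nr5a2 (1.71 RPKM in knockout and 8.48 RPKM in wild type, −1.81) and Prdm14 (0.712 RPKM in knockout and 4.72 RPKM in wild type, −1.74) had the largest differences. Of 17 genes known to be bound and activated by Oct4 with Sox2, 3 were lower and none higher (median −0.51). The lower ones included Jarid2, a Polycomb cofactor (45.4 RPKM in knockout and 132.2 RPKM in wild type, −1.52), and Dppa5a, a small ES cell protein (328.6 RPKM in knockout and 712.8 RPKM in wild type, −1.11). Other genes of that list lay near 0, such as Tdgf1, the co-receptor of Nodal (99.1 RPKM in knockout and 113.5 RPKM in wild type, −0.19), and Nodal itself (39.7 RPKM in knockout and 35.0 RPKM in wild type, 0.18).

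Among 25 measured genes for proteins found with Oct4, Nanog or Sall4, 4 were lower, beside 3.18% of all measured genes. The other 21 lay within 2-fold, and the median was −0.37. Besides Nr0b1, the lower ones included Sall1, a paralog of Sall4 (17.7 RPKM in the knockout and 49.5 RPKM in wild type, −1.43), and Parp1, a DNA repair enzyme (125.0 RPKM in knockout and 287.5 RPKM in wild type, −1.19). The remodelling subunit Chd4, which Sall4 and Zfp281 are known to engage, was at 98.9 RPKM in the knockout and 112.2 RPKM in wild type (−0.18). Of 20 measured paralogs of the members, 2 were higher and 4 lower (median 0.05), beside 12.5% and 3.18% of all measured genes. Fgf3 and Sall2 (8.91 RPKM in knockout and 1.76 RPKM in wild type, 1.84) were the higher ones, and Fgf17 (1.43 RPKM in knockout and 6.71 RPKM in wild type, −1.66), Sall1, Sall3 (0.581 RPKM in knockout and 2.87 RPKM in wild type, −1.29) and Sox1 (2.03 RPKM in knockout and 5.59 RPKM in wild type, −1.12) the lower ones. Paralogs of Sall4 thus stood on both sides, though Sall3 was measured only through the wild-type library.

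FGF receptors and genes that respond to the ERK kinases, which act downstream of Fgf4, did not move one way. Of 18 measured, 3 were called higher and 2 lower (median 0.34), beside 12.5% and 3.18% of all measured genes. The immediate-early gene Fos was at 38.5 RPKM in ES3 knockout and 4.57 RPKM in ES3 wild type (2.83). The receptor genes Fgfr4 (3.97 RPKM in knockout and 1.10 RPKM in wild type, 1.24) and Fgfr2 (4.22 RPKM in knockout and 1.59 RPKM in wild type, 1.01) were the other higher ones. The feedback inhibitor Spry4 was lower (22.7 RPKM in knockout and 66.8 RPKM in wild type, −1.52), as was Etv4, an ETS factor (52.2 RPKM in knockout and 110.0 RPKM in wild type, −1.06). In the Lin28 and let-7 list, 2 of 15 were higher and none lower (median −0.11), a count near the 12.5% of all measured genes that were higher. These were Hmga2, a classic target of let-7 (17.6 RPKM in knockout and 4.96 RPKM in wild type, 1.64), and Arid3a (8.36 RPKM in knockout and 3.21 RPKM in wild type, 1.15), while Lin28b, the paralog of Lin28a, was at 6.78 RPKM in the knockout and 5.66 RPKM in wild type (0.23).

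In MEFs 6 of the 8 genes were under 1 RPKM in both libraries. The 8 levels summed to 1007 RPKM in ES3 knockout and 1850 RPKM in ES3 wild type, against 2.87 RPKM in MEF knockout and 3.94 RPKM in MEF wild type. Wild-type ES3 cells had at least 2-fold more than wild-type MEFs for all 8, as did 29.6% of 12166 genes measured in either, a level comparison across 2 tables that were deposited separately. Pou5f1 and Fgf4 were listed at 0 in both MEF libraries. Sox2 was listed at 0.117 RPKM in MEF knockout and 0.0599 RPKM in MEF wild type, and Utf1 (0.0310 RPKM) and Lin28a (0.00517 RPKM) had a value in MEF knockout and 0 in MEF wild type. Sall4 was listed at 0 in MEF knockout and 0.00430 RPKM in MEF wild type.

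The remaining members reached 1 RPKM in MEFs, Zfp281 in both libraries and Nanog only in the knockout. Zfp281 was at 1.06 RPKM in MEF knockout and 2.91 RPKM in MEF wild type (−0.92), within 2-fold, and it passed 2-fold with a pseudocount of 0.1 RPKM (−1.37), after scaling to equal sums (−1.09), after centring within bins of gene span (−1.27) and with its transcripts summed (−1.12). Of 10805 measured MEF genes 4.84% were called lower and 0.981% higher. Nanog was at 1.65 RPKM in MEF knockout and 0.967 RPKM in MEF wild type (0.43). All of that value came from NM_028016, while NM_001080945 was listed at 0 in both MEF libraries. All 10 fibroblast markers were measured in MEFs, with sums of 19591 RPKM in MEF knockout and 16451 RPKM in MEF wild type.

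By Euclidean distance between log2(RPKM + 1) profiles over the 4 RNA libraries, each taken relative to its own mean, the genes most like the mean of the 8 were Zscan10 (distance 0.42), Cbx7 (0.44) and Gldc (0.45), among 12824 other genes. Zscan10, a zinc finger factor of ES cells, stood at 63.7 RPKM in ES3 knockout, 86.6 RPKM in ES3 wild type and under 0.1 RPKM in both MEF libraries. Dppa5a was nearest to both Pou5f1 (0.50) and Utf1 (0.54), Tdgf1 to Lin28a (0.26), Mybl2 to Fgf4 (0.18), Icosl to Nanog (0.33), Wfdc2 to Sall4 (0.13), Zfp106 to Zfp281 (0.08) and Septin1 to Sox2 (0.43). With 4 points a profile, such likeness describes these libraries only.

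H3K9me3 regions and KAP1 peaks were then placed relative to the start of each gene. In the knockout list 2 members, Nanog and Zfp281, had an H3K9me3 region within 20 kb of their starts, beside 24.3% of 17818 genes. No member had a wild-type H3K9me3 region at that distance, beside 24.4% of genes, and none had a region of the deposited wild-type-only list there (17.2%). No member had a KAP1 peak called in knockout chromatin within 20 kb (4.85%). A KAP1 peak called in wild type over input lay within 20 kb of Nanog alone (6.94% of genes), and likewise a KAP1 peak called in wild type over the knockout (4.93%). Counts this small over 8 genes do not set them apart from the genome.

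In knockout chromatin the nearest KAP1 peak to Nanog lay 20712 bp downstream of its start, with a score of 50.5. The wild-type KAP1 peak next to Nanog (mm9 chromosome 6, 122655163 to 122655751, 589 bp) ended 1756 bp upstream of its start. A peak at least as near was found for 0.735% of all genes. The authors' score of this peak was 88.2 over input, rank 453 of 3099 peaks, and 87.3 over the knockout, rank 345 of 2382. A weaker peak (122646754 to 122647329) lay 10178 bp upstream with a score of 50.7 in both lists, close to the lowest score in them, 50.01.

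The knockout list held an H3K9me3 region (122655156 to 122655627, 472 bp) 1880 bp upstream of the Nanog start. It shared 465 bp with the stronger KAP1 peak, or 98.5% of the region. That peak did not overlap a wild-type H3K9me3 region, and the nearest of those lay 65790 bp from the start. Within 100 kb Nanog had 5 H3K9me3 regions in the knockout list and 1 in the wild-type list. Across the genome 147 of the 3099 KAP1 peaks, or 4.74%, overlapped a knockout H3K9me3 region and no wild-type one, whereas 945, or 30.5%, overlapped a wild-type region. Each list is 1 call per condition with no score for H3K9me3, so the strength of this region and its agreement between replicates cannot be given.

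**Figure D3:**
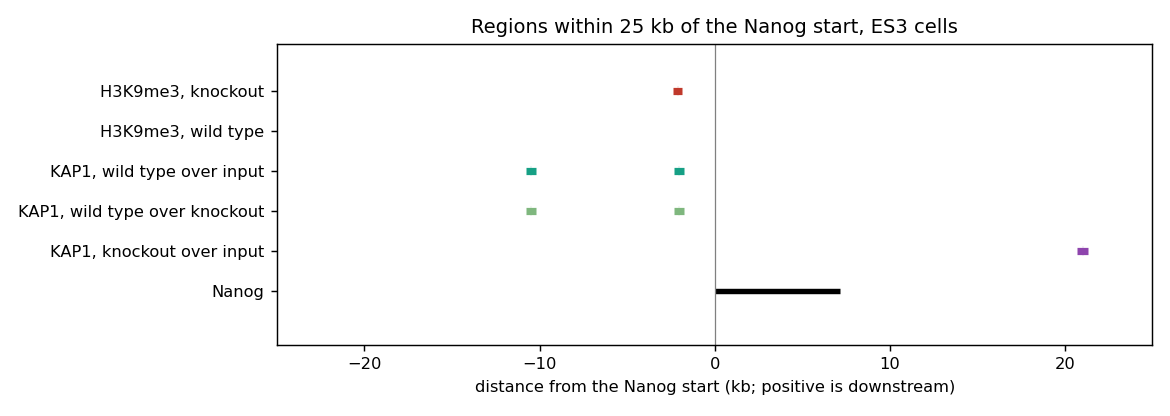
Regions of 5 deposited lists within 25 kb of the Nanog start in ES3 cells, drawn to scale by distance from the start (kb), 1 row per list, with the Nanog gene in black at the bottom. The knockout H3K9me3 region and the wild-type KAP1 peak lie at the same place, 1880 and 1756 bp upstream, and the wild-type H3K9me3 row is empty.

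Pou5f1 had the most H3K9me3 around it, none of it close. Within 100 kb of its start lay 6 knockout and 10 wild-type regions, the nearest at 33626 bp in the knockout (chromosome 17, 35608151 to 35609381) and 33421 bp in wild type (35608051 to 35609586), both upstream. Of the 10 wild-type regions 8 overlapped a knockout region, among them blocks of over 10 kb, and 2 downstream did not. Of 4 wild-type KAP1 peaks called over input there, 2 were also called over the knockout, and each of the 4 overlapped H3K9me3 of both lists. The 2 peaks also called over the knockout lay at 35592110 to 35592976 and at 35546910 to 35547776. They had the same length of 867 bp, the same scores (56.1 over input and 65.98 over the knockout) and starts exactly 45200 bp apart. Whether they are 2 separate signals was not tested.

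Around Sall4, Utf1, Lin28a and Zfp281 the H3K9me3 regions within 100 kb were mostly in the wild-type list. All lay beyond 20 kb apart from 1 knockout region near Zfp281. Downstream of Sall4, 41876 bp from the start, lay a wild-type region of 1681 bp that had no counterpart in the knockout list (chromosome 2, 168549887 to 168551567). Around Utf1 the knockout list held 1 region, 31092 bp upstream, and the wild-type list held 4 downstream, the nearest at 66473 bp, none of them shared. A knockout region of 724 bp without a wild-type counterpart lay 16114 bp downstream of the Zfp281 start, beyond the end of the gene, and 2 wild-type regions without a knockout counterpart lay upstream, the nearest at 74188 bp. Around Lin28a 1 of 2 wild-type regions within 100 kb had a counterpart.

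Sox2 and Fgf4 had the lowest ratios. Sox2 had no H3K9me3 region and no KAP1 peak within 100 kb in any of the 6 lists, a distance at which 70% of genes had a knockout and 69.3% a wild-type H3K9me3 region. Its nearest H3K9me3 region lay 191812 bp downstream in the knockout list and 133058 bp upstream in the wild-type list, and its nearest wild-type KAP1 peak, with a high score of 626.3 over input, lay 244376 bp downstream. Within 100 kb Fgf4 had 1 H3K9me3 region, at 73192 bp, and 1 KAP1 peak, at 90022 bp, in the knockout lists and neither in the wild-type lists. Summed over the 8 genes, 7 of 14 knockout H3K9me3 regions within 100 kb lacked a wild-type counterpart, beside 50.7% of 37221 regions in the genome. Likewise 10 of 20 wild-type regions lacked a knockout counterpart, beside 51.5% of 37002. Pou5f1 alone supplied 6 of these knockout regions, all with a counterpart, and 10 of the wild-type regions, 8 of them with one. The sums therefore do not describe the other members.

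**Figure D4:**
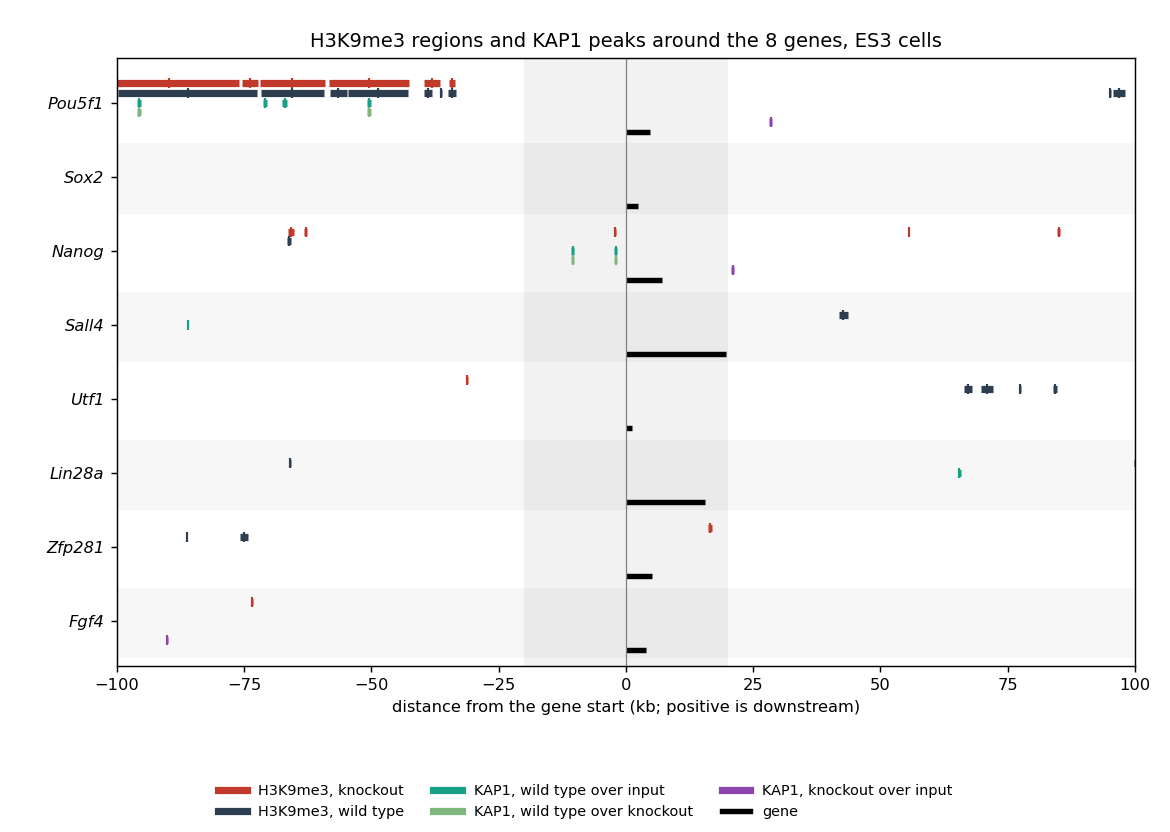
H3K9me3 regions and KAP1 peaks within 100 kb of the start of each gene in ES3 cells, drawn to scale by distance from the start (kb, positive downstream), with 1 colour per list, the gene in black and a shaded band of 20 kb on each side. Only Nanog and Zfp281 have anything inside the band, Pou5f1 has a run of H3K9me3 upstream in both lists, and the row of Sox2 is empty.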

How the data were processed

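RNA and chromatin libraries of mouse cells were analysed from the tables and lists that the authors deposited. The authors deposited RPKM per RefSeq transcript, 22631 rows for ES cells and 22630 for MEFs, with a ratio of knockout to wild-type RPKM that was not used. Bowtie and the build mm9 are named per the submitters' processing notes; the read counter, the H3K9me3 caller and all versions were not stated in those notes. The ES columns, named only wild type and knockout, were read as ES3, since the other ES pair is labelled a knockdown. KAP1 peaks have names that MACS writes and a deposited score of unstated scale; H3K9me3 lists have starts and ends alone. No series column of per-sample values was left unmapped.

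Among rows under 0.5 RPKM in both libraries, the commonest knockout to wild-type ratio in MEFs was 0.977 (234 of 4606 rows), followed by 0.488 and 1.954; in ES3 cells it was 1.458 (39 of 3541) and then 0.969 (33). Absolute depth was not derived.

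The transcript row with the highest mean stood for its symbol; missing or date-like symbols took the reference symbol. A pseudocount of 1 RPKM was used. Regions overlapped when they shared 1 bp. Gene starts are the deposited mm9 coordinates. Named genes are the members, Trim28, the genes of each list with the largest ratios (up to 4, with examples picked after their values were seen), nearest neighbours, likest genes and nearest regions. The members and lists were chosen with earlier results of these data known. The calculation of ratios was checked on planted fold changes without noise, and that of distances on set positions. Neither check tests the calls made from 1 library a group. Python 3.11.15, pandas 2.3.3, numpy 2.4.6 and matplotlib 3.10.9 were used. Alternatives were other pseudocounts, filters, centrings, transcript sums, thresholds and windows. The Rex1GFP, H3K27ac and input libraries were not analysed here, and 1 gene of the lists is counted but not reported here.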

Additional observations from a re-analysis of the deposited data

Results flagged for a closer look

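Nanog stood out because its ratio had opposite signs in the 2 kinds of cell, −1.37 in ES3 cells and 0.43 in MEFs, with 1 library a group, so the difference was not tested. Its MEF values, 1.65 RPKM in the knockout and 0.967 RPKM in wild type, lay close to the 1 RPKM limit. Nanog passed that limit in MEFs only through the knockout library, where its value is higher, so the sign of its MEF ratio is no separate result. Only 2 members had a MEF ratio at all.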

How the results depend on the processing

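In ES3 cells, 70 of 72 values of the members kept their direction and their side of the threshold. The exceptions were Utf1, which passed 2-fold when centred on the median (−1.001), and Nanog, which did not reach a 3-fold threshold. The number of lower members was 3 in the main analysis, and all ratios stayed negative. Part of this agreement was fixed in advance. A changed filter or threshold leaves each ratio as it was, and summing transcripts changes nothing for members with a single transcript row. In MEFs the number of lower members was 0 in the main analysis and 1, Zfp281, under a pseudocount of 0.1 RPKM, scaling to the same sum, centring within 20 bins of span and summed transcripts. The median of the 2 measured MEF members was −0.25, and it turned to 0.0037 over all 8 with no filter, because 6 members at or near 0 then entered, and a filter at 5 RPKM left none. With windows of 10, 50 and 100 kb, members near a knockout H3K9me3 region numbered 1, 4 and 5 (2 within 20 kb), beside 14.1%, 46.6% and 70% of all genes. At 50 and 100 kb they numbered 2 and 6 for wild-type regions (47.3% and 69.3% of genes), 1 and 5 for wild-type-only regions (36.1% and 57%), and 2 and 3 for KAP1 peaks in the knockout (11.7% and 21.5%), each 0 within 20 kb. At 100 kb they numbered 4 for wild-type KAP1 peaks over input (29.3% of genes) and 2 over knockout (22.1%), each 1 within 20 kb. No paired analysis was possible because each group is 1 library. Depth in reads is unknown, which limits the values of MEF members under 1 RPKM most.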
